A study of Homo sapiens with 10 samples.

Results

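The 9 enzymes described here make, recycle or clear the nucleotides that DNA synthesis draws on: RRM1, RRM2, TYMS, TK1, DUT, DTYMK, DCTPP1, UMPS and CAD. They were taken by gene symbol, by a rule that uses no measured value. The members and the lists set beside them were, however, chosen with earlier results of these data known. The members are 9 of the 11258 transcripts listed for both assays. FPKM are fragments scaled to transcript length and library size. All 9 reached 5 FPKM in both assays in 1 or more libraries, and the 7015 transcripts that did so are called tested below. The cells were BJ cells, human primary fibroblasts immortalized by expression of hTERT, the catalytic subunit of telomerase. A control, time 0 of the series, was set against cells treated with Nutlin-3a for 2, 4, 6 or 19 h. Nutlin-3a keeps MDM2, the ubiquitin ligase of p53, from binding p53, and so activates p53. RNA-Seq measured poly(A) RNA, and Ribo-Seq measured the stretches of mRNA that ribosomes protect, here called ribosome density. Every group held 1 library of each assay, 10 libraries in all, so differences could not be set against replicates and no p-value was computed.

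The recovered totals were 23845558 to 27554297 reads for the 5 RNA-Seq libraries and 7744902 to 14460716 for the 5 Ribo-Seq libraries, with the 19 h Ribo-Seq library the smallest. The 9 transcripts held 55 to 10436 reads per library. Errors given are counting standard errors (SE) of a log2 change, from these reads. They cover counting only, since there were no replicates and PCR copies could not be told from separate molecules. The paper lists its control, 6 h and 19 h RNA-Seq samples as paired-end. Whether a recovered read is a single mate or a pair is not known, and if mates were counted the RNA SE is too small. The p53 targets checked first rose in RNA: CDKN1A, which encodes the CDK inhibitor p21, went from 68.6 FPKM in the control to 1316 FPKM at 19 h, and MDM2 from 14.9 to 259 FPKM. All 10 fibroblast markers were above 5 FPKM in the control, with a summed level of 9365 to 12630 FPKM over the 5 RNA-Seq libraries. Of 14 markers of other cell types, 6 were listed in the RNA-Seq table and only the keratins KRT8 and KRT18 were above 5 FPKM in the control. The summed level of these markers was at most 331 FPKM, most of it KRT18, at 230 to 315 FPKM. In the control KRT18, at 293 FPKM, stood above some fibroblast markers, such as LUM at 192 FPKM. PTPRC, VWF and CDH1 were at or below 0.246 FPKM in every library. The labels name neither a vehicle nor a sequencing run, so time on the drug and library handling cannot be told apart. The paper states that conditions were compared with a control of their own run, but it lists Nutlin-3a at 6 and 19 h only.

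Deoxynucleotides are made from ribonucleotides by ribonucleotide reductase, an enzyme built of the large subunit RRM1 and a small subunit. The small subunit RRM2 is made for S phase, while its paralog RRM2B is a transcriptional target of p53. Thymidylate has its own route: TYMS methylates dUMP to dTMP with a folate carbon, TK1 recovers thymidine from outside or from breakdown, DTYMK adds the next phosphate, and DUT cleaves dUTP so that uracil stays out of DNA. DCTPP1 hydrolyses dCTP and its modified forms. CAD carries out the opening steps of de novo pyrimidine synthesis in a single polypeptide, and UMPS closes that pathway by making UMP. Dividing fibroblasts need these enzymes in S phase, and several of the genes are known targets of E2F factors, which act at the start of that phase.

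The promoters of the members are shown here because 8 of the 9 transcripts were at least 2-fold lower at the latest time. The RefSeq promoter table (GRCh38.p14) held 14 windows for the 9 genes, from 250 bases before to 50 after each start, with 2 starts for RRM2, 2 for TK1 and 4 for DUT. The 7 genes printed are the 6 deoxynucleotide enzymes with a match, and CAD, which holds none in the stretch shown. Which start the counted transcript used is not known, and for genes with several starts the window with the most matches was printed, a choice made after the values were seen. Each line below gives the 150 bases before the start, 5′ to 3′ on the strand of the gene, and capitals mark the words searched for, on both strands. The words of the E2F type were TTCGCGC, a second form with the letters TTGGCGC, and a further form with the letters TTCCCGC, which appears as GCGGGAA where it lies on the other strand. The word of the CCAAT box was CCAAT alone, which appears as ATTGG where it lies on the other strand. The words of the CHR, an element of cell-cycle promoters, were TTTGAA, which appears as TTCAAA on the other strand, and the form TTCGAA, which reads alike on both.
RRM2, chr2:10122589-10122738, plus strand: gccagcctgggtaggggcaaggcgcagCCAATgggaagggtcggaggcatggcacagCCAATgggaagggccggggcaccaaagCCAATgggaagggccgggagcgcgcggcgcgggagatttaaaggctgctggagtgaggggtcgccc
RRM1, chr11:4094535-4094684, plus strand: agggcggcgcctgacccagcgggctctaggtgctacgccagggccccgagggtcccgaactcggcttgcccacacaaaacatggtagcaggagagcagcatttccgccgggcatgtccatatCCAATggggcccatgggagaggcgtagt
TYMS, chr18:657503-657652, plus strand: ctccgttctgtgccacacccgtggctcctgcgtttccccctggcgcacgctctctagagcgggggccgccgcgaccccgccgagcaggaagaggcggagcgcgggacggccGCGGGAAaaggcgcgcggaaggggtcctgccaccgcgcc
TK1, chr17:78187053-78187202, minus strand: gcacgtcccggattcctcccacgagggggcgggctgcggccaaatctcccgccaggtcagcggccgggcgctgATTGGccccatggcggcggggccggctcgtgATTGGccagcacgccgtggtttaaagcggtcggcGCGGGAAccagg
DTYMK, chr2:241686816-241686965, minus strand: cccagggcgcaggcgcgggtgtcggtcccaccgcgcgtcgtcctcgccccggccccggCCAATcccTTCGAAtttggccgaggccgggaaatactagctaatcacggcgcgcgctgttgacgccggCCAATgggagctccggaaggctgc
DUT, chr15:48332047-48332196, plus strand: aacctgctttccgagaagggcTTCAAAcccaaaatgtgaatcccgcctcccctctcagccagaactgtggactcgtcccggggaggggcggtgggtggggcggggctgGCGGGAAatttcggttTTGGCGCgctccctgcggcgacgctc
CAD, chr2:27217219-27217368, plus strand: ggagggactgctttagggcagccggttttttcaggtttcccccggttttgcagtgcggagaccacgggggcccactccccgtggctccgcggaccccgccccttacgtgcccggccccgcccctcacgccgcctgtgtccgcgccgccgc

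RRM2 carried 3 CCAAT words, starting 123, 93 and 66 bases before the start. Counted over all 14 windows of the members, the 150 bases before the start held an E2F-type word in 3 (21.4%), those of DUT, TK1 and TYMS, against 6.28% of the stretches of this length in all 35116 windows of the table. CCAAT stood in 4 of the 14 (28.6%), those of DTYMK, RRM1, RRM2 and TK1, against 23.5%, and a CHR word in 3 (21.4%), those of DTYMK, DUT and UMPS, against 7.87%. The CCAAT share was thus near that of all windows, and windows of 1 gene can overlap. CAD and DCTPP1 held none of the words in this stretch. A match is a description of letters, and its part in the changes below was not tested.

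RNA of all 9 enzymes was lower than in the control at 19 h, and 8 of the 9 were lower by at least 2-fold, the size that is called a change here. RRM2 led, at 1.63% of its control level, and CAD was the one left above the threshold, at 51.8%. The other 7 kept between 20.6% (RRM1) and 48.2% (UMPS) of their control RNA. The background for such a call was 7.1% of the 7015 tested genes lower by 2-fold or more at 19 h, and the median log2 change was -1.52 for the 9 enzymes against -0.067 for all tested genes. As bulk libraries are scaled to their own totals, fewer cells holding a transcript and less of it per cell cannot be told apart.

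**Figure D1:**
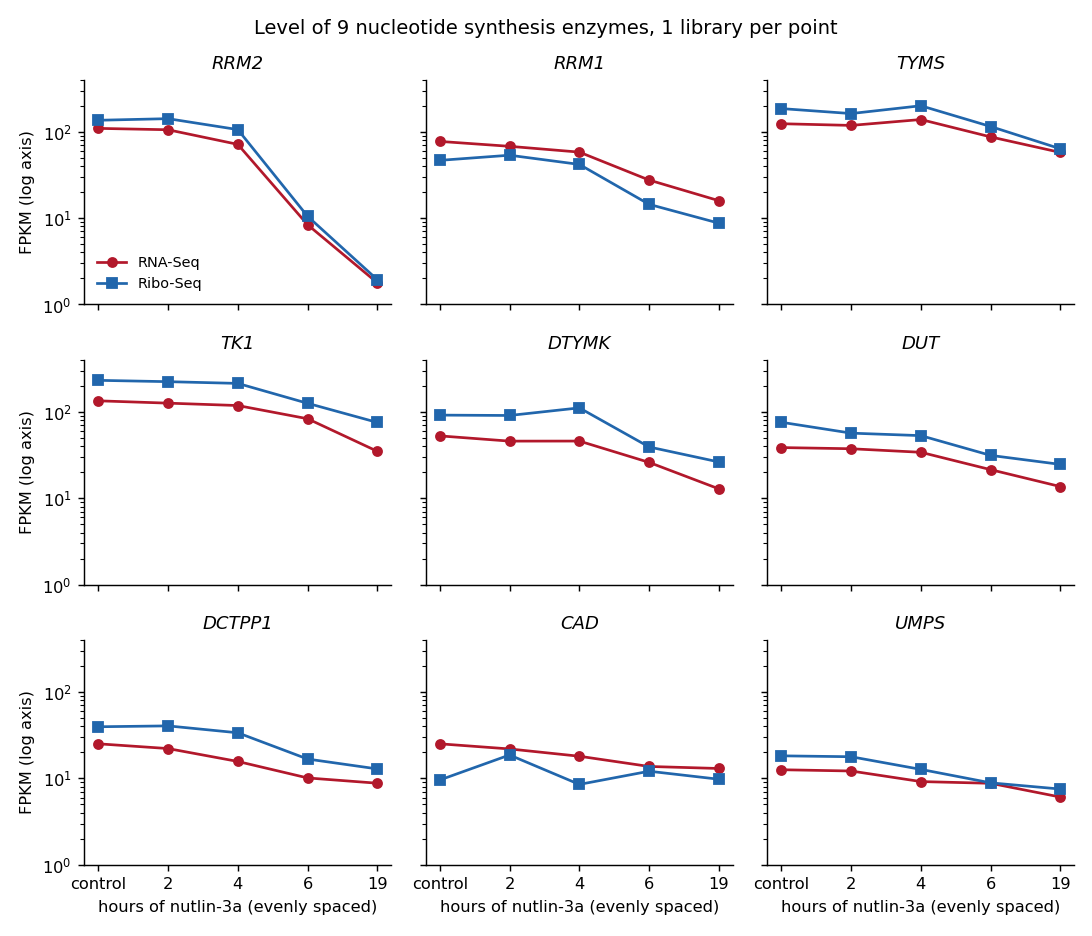
FPKM on a log axis in the control and after 2, 4, 6 and 19 h of Nutlin-3a for each of the 9 enzymes, with RNA-Seq as red circles and Ribo-Seq as blue squares, 1 library per point, and times drawn at even spacing. RRM2 drops from 109 to 1.78 FPKM in RNA, while CAD in Ribo-Seq moves up and down between 8.53 and 18.7 FPKM.

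RRM2, the S-phase small subunit of the reductase (ENSG00000171848), had 109 FPKM of RNA in the control and 105, 71.4, 8.38 and 1.78 FPKM after 2, 4, 6 and 19 h. Its RNA was thus near the control at 2 h and already at 7.66% of it at 6 h. The log2 change was -0.61 (SE 0.023) at 4 h, -3.71 (SE 0.052) at 6 h and -5.94 (SE 0.11) at 19 h, the last resting on 170 reads against 9577 in the control. Most of the fall lay between 4 and 6 h, when RRM2 RNA dropped to 11.7% of its 4 h level. With a floor of 5 FPKM in place of 1, the 19 h change of RRM2 would read -4.45, still the largest of the 9.

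RRM1, the large subunit that carries the catalytic site (ENSG00000167325), fell less than RRM2. Its RNA was 77.3 FPKM in the control and 67.8, 58.1, 27.6 and 15.9 FPKM in the treated libraries. Each of these was lower than the one before, with a log2 change against the control of -0.41 (SE 0.029) at 4 h, -1.49 (SE 0.035) at 6 h and -2.28 (SE 0.045) at 19 h. RRM1 and RRM2 were the only members to fall by 2-fold or more from 4 to 6 h in RNA, a step at which 4.23% of tested genes did so.

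RRM2B, the p53-induced small subunit, is not among the 9 and moved the other way. Its RNA was 9.66, 10.2, 26.5, 42.3 and 41.3 FPKM in the order of time, a log2 change of 2.10 (SE 0.047) at 19 h, where 2.49% of tested genes were higher by 2-fold or more. RRM2B RNA was 0.088 times that of RRM2 in the control, 0.371 times at 4 h, 5.05 times at 6 h and 23.2 times at 19 h. The small subunit with more RNA therefore changed between 4 and 6 h, and RRM2B made up 8.12% of the sum of both small subunits in the control and 95.9% at 19 h. That sum fell to 36.2% of its control level at 19 h, against 20.6% for RRM1.

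Ribosome density of the subunits showed the same exchange at other ratios. RRM2 density was 136, 142, 106, 10.5 and 1.93 FPKM, and that of RRM1 46.6, 53.5, 41.8, 14.4 and 8.73 FPKM. RRM2B density was 5.67, 4.48, 12.3, 16.9 and 14.9 FPKM. RRM2B density was below that of RRM2 up to 4 h, 1.61 times it at 6 h and 7.72 times it at 19 h. The summed density of both small subunits at 19 h was 11.9% of the control, a lower share than their summed RNA kept. Ribo-Seq FPKM was scaled to the whole transcript, so the RRM2B to RRM2 density ratios and this summed share depend on that scaling. The 19 h density of RRM2 rests on 55 reads.

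**Figure D2:**
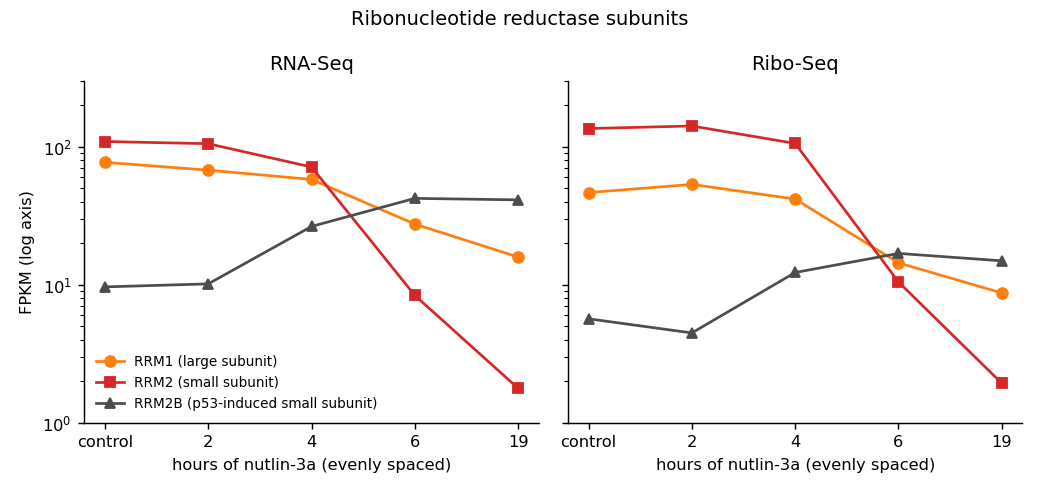
FPKM on a log axis of the reductase subunits RRM1 (orange circles), RRM2 (red squares) and RRM2B (grey triangles) in RNA-Seq (left) and Ribo-Seq (right), 1 library per point, with times at even spacing. RRM2B lies below RRM2 up to 4 h and above it at 6 and 19 h in both assays, with 41.3 against 1.78 FPKM of RNA at 19 h.

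The thymidylate enzymes TK1, TYMS and DTYMK differed in the course of their RNA. TK1, the cytosolic thymidine kinase (ENSG00000167900), had the most RNA of the 9 in the control, with 134 FPKM, followed by 126, 118, 83.3 and 34.9 FPKM. Its larger step was the last, which covers more hours, so the sizes of the steps do not give rates. The log2 change was -0.51 from 4 to 6 h and -1.25 from 6 to 19 h. DTYMK, the thymidylate kinase (ENSG00000168393), had 52.8, 45.9, 45.9, 26.0 and 12.8 FPKM, and fell by 0.82 and 1.02 over the same steps. The 19 h changes of both, -1.94 (SE 0.043) for TK1 and -2.04 (SE 0.080) for DTYMK, differed by less than 2 SE.

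TYMS, the target of fluoropyrimidine drugs (ENSG00000176890), was the one member whose RNA stood above the control at any time. Its RNA was 124, 118, 138, 87.1 and 57.5 FPKM, with a log2 change of 0.16 (SE 0.028) at 4 h, when the other 8 stood below their controls. Against the control, TYMS RNA was lower by 0.51 (SE 0.031) at 6 h and by 1.11 (SE 0.035) at 19 h, when 46.5% was left. TYMS RNA was below that of TK1 in the control and at 2 h, and was the highest of the 9 at 4, 6 and 19 h. Its gene overlaps ENOSF1, a protein-coding gene listed in the same table, and as no use of strand is stated, reads from the shared stretch cannot be told apart. RRM2, DUT and UMPS overlap non-coding genes only, and the other 5 overlap none in the RefSeq annotation.

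DUT and DCTPP1, which clear unwanted or surplus deoxynucleotides, ended at nearly the same share of their control RNA by different paths. DUT (ENSG00000128951) had 38.6, 37.4, 34.1, 21.4 and 13.6 FPKM, and DCTPP1 (ENSG00000179958) had 25.2, 22.2, 15.7, 10.1 and 8.80 FPKM. DCTPP1 had the largest fall of the 9 at 4 h, a log2 change of -0.68 (SE 0.088) against -0.18 (SE 0.047) for DUT, though that of RRM2 was within 2 SE of it. From 6 to 19 h DCTPP1 fell by only 0.20 more, and the 19 h changes were -1.52 (SE 0.10) and -1.50 (SE 0.061), within 2 SE of each other.

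The pyrimidine enzymes CAD and UMPS had the smallest 19 h changes of RNA, together with TYMS. CAD RNA (ENSG00000084774) was 25.2, 22.0, 18.1, 13.8 and 13.0 FPKM, lower at each later time, with a log2 change of -0.87 (SE 0.035) at 6 h and -0.95 (SE 0.037) at 19 h. UMPS (ENSG00000114491), the least abundant member in the control, had 12.6, 12.2, 9.19, 8.78 and 6.08 FPKM, and a change of -1.05 (SE 0.087) at 19 h. CAD and UMPS were within 2 SE of each other, as were UMPS and TYMS, so the threshold of 2-fold separated values that counting error did not. UMPS lost its call when changes were centred on the median of all tested genes, at -0.98, or taken with a pseudocount, at -0.94.

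Set in order of their 19 h RNA change, the members were RRM2, RRM1, DTYMK, TK1, DCTPP1, DUT, TYMS, UMPS and CAD. Neighbours lay more than 2 SE apart at 4 places in that order: between RRM2 and RRM1, RRM1 and DTYMK, TK1 and DCTPP1, and DUT and TYMS. At 2 h the largest change of RNA was -0.20 (SE 0.052, DTYMK), and none of the 9 was called lower, against 0.0143% of tested genes. At 4 h none was called either, against 0.684% of tested genes, with a median change of -0.41 against -0.074 over all tested genes. At 6 h RRM2, RRM1, DCTPP1 and DTYMK were called lower, 4 of 9 against 5.39% of tested genes. DTYMK, at -1.02, lost that call with a pseudocount (-0.99) and with the 2 h library as baseline (-0.82). From 6 to 19 h RRM2, TK1 and DTYMK fell by 2-fold or more, 3 of 9 against 1.72% of tested genes for that step.

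**Figure D3:**
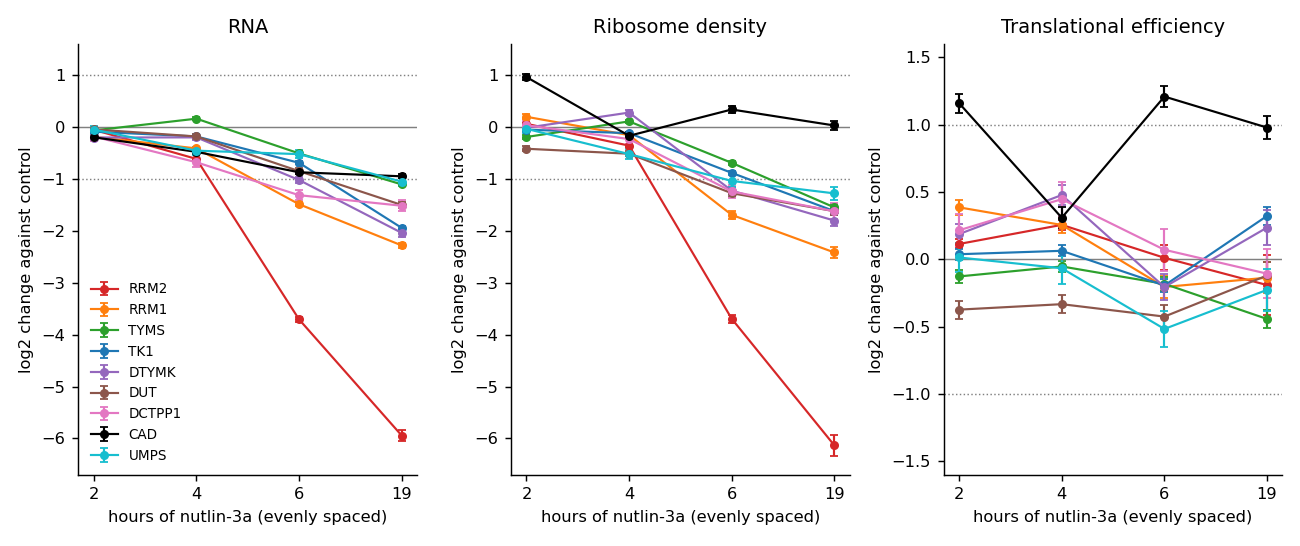
Log2 change against the control library at 2, 4, 6 and 19 h for RNA (left), ribosome density (middle) and translational efficiency (right), 1 line per enzyme, with bars of 1 counting SE, dotted lines at the 2-fold call and times at even spacing. RRM2 reaches -5.94 in RNA and -6.13 in density, and CAD is the only line above the 2-fold call in translational efficiency, at 1.16 at 2 h and 1.21 at 6 h.

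Ribosome density of 8 of the 9 enzymes fell with their RNA. At 19 h all but CAD were called lower in density, 8 of 9 against 14.9% of tested genes, with a median change of -1.62 against -0.19. RRM2 changed by -6.13 (SE 0.20) and RRM1 by -2.42 (SE 0.11). The next 5 lay close together, from -1.80 (SE 0.099) for DTYMK to -1.55 (SE 0.056) for TYMS, with each neighbour within 2 SE of the next, and UMPS followed at -1.28 (SE 0.13). At 6 h RRM2, RRM1, DUT, DCTPP1, DTYMK and UMPS were called lower, 6 of 9 against 8.04% of tested genes. UMPS, at -1.04, lost that call with a pseudocount (-0.96) and with the length trend removed (-0.99), and DUT lost it with the 2 h library as baseline (-0.86). At 2 and 4 h none of the 9 was, against 0.128% and 0.527% of tested genes.

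TK1 led the 9 in density throughout, although in RNA TYMS stood above it from 4 h on. TK1 density was 232, 224, 214, 126 and 75.5 FPKM in the order of time, the highest of the 9 in each library. TYMS density was 185, 162, 199.9, 115 and 63.4 FPKM. Like its RNA, TYMS density was highest at 4 h. DTYMK density was 91.8, 90.9, 111, 39.2 and 26.3 FPKM, also highest at 4 h and then 35.3% of that level at 6 h.

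DUT had the largest fall in density at 2 h, when TYMS was the other member lower by more than 2 SE, at -0.19 (SE 0.035). DUT density was 75.9, 56.8, 53.1, 31.4 and 24.7 FPKM, with a log2 change of -0.42 (SE 0.050) already at 2 h, when DUT RNA had changed by -0.045 (SE 0.045). DCTPP1 density, at 39.6, 40.6, 33.8, 16.8 and 12.9 FPKM, stayed within 1 SE of the control at 2 h. UMPS density was 18.3, 17.8, 12.7, 8.89 and 7.53 FPKM. UMPS density was thus 48.7% of the control at 6 h, a time at which its RNA was 69.6%.

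From 4 to 6 h, RRM2, RRM1, DTYMK and DCTPP1 fell by 2-fold or more in density, 4 of 9 against 7.48% of tested genes. From 6 to 19 h RRM2 alone did, against 2.08% of tested genes. The step from 4 to 6 h was the largest fall in density for all members but TYMS and CAD, although for TK1 and UMPS it exceeded another step by less than 1 SE.

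Translational efficiency (TE), the log2 ratio of Ribo-Seq to RNA-Seq FPKM, changed by less than 2-fold in 8 of the 9 enzymes at every time. CAD was the exception, with a TE change of 1.16 (SE 0.070) at 2 h, 0.31 (SE 0.078) at 4 h, 1.21 (SE 0.079) at 6 h and 0.98 (SE 0.088) at 19 h. It was the member called higher at 2 h, 1 of 9 against 1.14% of tested genes, and again at 6 h, against 3.21%. No member was called higher at 4 h or 19 h, against 0.87% and 1.94% of tested genes. None was called lower at any time, against 0.057%, 0.128%, 2.54% and 4.21% of tested genes at 2, 4, 6 and 19 h. The median TE change of the 9 at 19 h was -0.12, against -0.067 over all tested genes.

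CAD density was 9.58 FPKM in the control and then 18.7, 8.53, 12.1 and 9.78 FPKM, so it moved up and down while its RNA fell at every step. The 2 h value was 1.95 times the control, a log2 change of 0.96 (SE 0.063), and the step from 2 to 4 h was a fall of 1.13, one that 1.55% of tested genes shared at 2-fold or more. At 19 h the change in density was 0.030 (SE 0.080), the only one of the 9 within 2 SE of the control. CAD started low: its Ribo-Seq to RNA-Seq ratio of 0.381 in the control was at or above that of only 9.09% of tested genes, and at 4 h of 12.9%, while at 2, 6 and 19 h the shares were 48.0%, 52.6% and 46.3%. The control and 4 h libraries were thus low and the other 3 higher. This course was not particular to CAD: TE of PFAS, of the purine pathway, changed by 0.85, 0.29, 1.07 and 0.97 at the 4 times, and that of the fibroblast marker FN1 by 1.73, 0.32, 2.04 and 1.65, genes named after their values were seen.

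CAD is also the longest of the 9 transcripts, at 7114 nt against 1143 nt (DCTPP1) to 3673 nt (RRM2), and TE changes rose with transcript length over all tested genes by 0.10 log2 units per doubling of length at 2 h, 0.17 at 6 h and 0.15 at 19 h. At 4 h, when CAD was not called, that slope was -0.018. With the length trend removed, the TE change of CAD was 0.99 at 2 h, 0.95 at 6 h and 0.77 at 19 h, and it no longer passed the call. Among 500 tested transcripts within 20% of its length, the TE change of CAD was at or above that of 96.2% at 2 h, 93.6% at 6 h and 93.2% at 19 h. Against the 2 h library as baseline it was 0.049 at 6 h and turned to -0.18 at 19 h. The part of length or of the control library in the CAD result was not tested further.

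The other TE changes were small, and several were larger than their counting error. TYMS was lower at 19 h, by 0.44 (SE 0.066), with a change of -0.18 (SE 0.051) at 6 h. TK1 was higher at 19 h, by 0.32 (SE 0.067), which took it to a Ribo-Seq to RNA-Seq ratio of 2.16. That was the highest of the 9 in that library, with DTYMK close behind at 2.05. In density, TYMS and TK1 therefore ended at 34.2% and 32.5% of the control although their RNA ended at 46.5% and 26.0%. DUT was lower at 2, 4 and 6 h, by 0.37 (SE 0.067), 0.33 (SE 0.068) and 0.42 (SE 0.083), and UMPS at 6 h by 0.52 (SE 0.14). DTYMK and DCTPP1 were higher at 4 h, by 0.48 (SE 0.074) and 0.45 (SE 0.12), a time at which the median over all tested genes was 0.18. For RRM2 the 19 h TE change of -0.19 (SE 0.23) was within its error, so the fall in density was about that of its RNA.

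TE levels within the control library separated the members. The Ribo-Seq to RNA-Seq ratio of DUT was the highest of the 9, with a log2 value of 0.97, followed by DTYMK at 0.80 and TK1 at 0.79. RRM1, at -0.73, and CAD, at -1.39, were the only ones below 0, where both FPKM are equal. The 7 others were at or above 75.8% (RRM2) to 92.1% (DUT) of tested genes, while RRM1 stood at 29.2%. Ribo-Seq FPKM was scaled to the whole transcript, and whether it counts reads outside the coding sequence could not be settled, since the methods describe coding-sequence reads. The order of density and TE levels between genes depends on this. TE changes may as well, since the paper lists different coding-sequence shares for the control, 6 h and 19 h Ribo-Seq libraries.

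Other genes of nucleotide metabolism show how far the fall extended beyond the 9. Over all tested genes, 7.1% were called lower and 2.49% higher in RNA at 19 h. In the list of other deoxynucleotide and folate genes, 3 of 11 tested were called lower in RNA at 19 h and 1 higher (RRM2B), with a median change of -0.25. Among those lower were SHMT1 at -2.44 and MTHFD1 at -1.91, both of which supply folate carbons in the cytosol. SHMT1 was low, with 6.01 FPKM in the control and 1.11 at 19 h, and would not be called with a floor of 5 FPKM. MTHFD1 RNA went from 51.4 FPKM in the control to 13.7 at 19 h. Among salvage genes 2 of 8 tested were called lower, DCK, the deoxycytidine kinase, at -1.98 and HPRT1, which recovers hypoxanthine and guanine, at -1.35, with a median of -0.44. Of the other de novo pyrimidine genes CTPS, which makes CTP from UTP, was the only one of 3 tested, at -1.39.

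De novo purine synthesis genes had a smaller median change of RNA than the 9 enzymes. Of 12 tested genes 5 were called lower at 19 h, against 7.1% of all tested genes, with a list median of -0.85. They were PFAS (-1.63), PAICS (-1.43), PRPS2 (-1.17), PPAT (-1.11) and GMPS, which went from 22.5 to 11.2 FPKM. PPAT, which takes the committed step of that pathway, had 7.89 FPKM in the control and 3.65 at 19 h. It would not be called with a floor of 5 FPKM. In density at 19 h 8 of the 12 were called lower, against 14.9% of all tested genes, with a median of -1.20. PAICS stood at -2.49 in density. Genes that hydrolyse or break down nucleotides had a median of -0.43 in RNA at 19 h. Of 12 tested, 2 were called lower, against 7.1% of all tested genes, among them NUDT1 (-1.12), which clears oxidized nucleotides. The 1 called higher, against 2.49% of all tested genes, was ADA, adenosine deaminase, at 1.01. ADA was low throughout, with 3.08 FPKM in the control and 6.19 at 19 h, and its call was lost with a floor of 5 FPKM or a pseudocount of 1 FPKM.

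Genes of DNA replication had larger median falls than the 9 enzymes. They form a list of origin licensing and replication start, here the licensing list, and a list of the replication fork. All 17 genes of the licensing list were called lower in RNA at 19 h, against 7.1% of all tested genes, with a median of -3.43. The largest changes were those of CDC6 (-4.74), MCM2 (-4.46), CDC45 (-4.36), ORC6 (-4.06), CDT1 (-4.02) and GINS2 (-3.98), of which all but MCM2 were below the floor of 1 FPKM at 19 h, so that these values depend on the floor. Of 19 tested genes of the replication fork 15 were called lower, with a median of -2.66, among them FEN1, the flap endonuclease, at -4.15, and RFC3 at -4.14, followed by RFC4 (-3.71), PRIM1 (-3.55), TIMELESS (-3.25) and RFC2 (-3.19), with RFC3 and PRIM1 below that floor. At 4 h 6 of the 17 genes of the licensing list were already called lower, against none of the 9 enzymes and 0.684% of all tested genes.

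**Figure D4:**
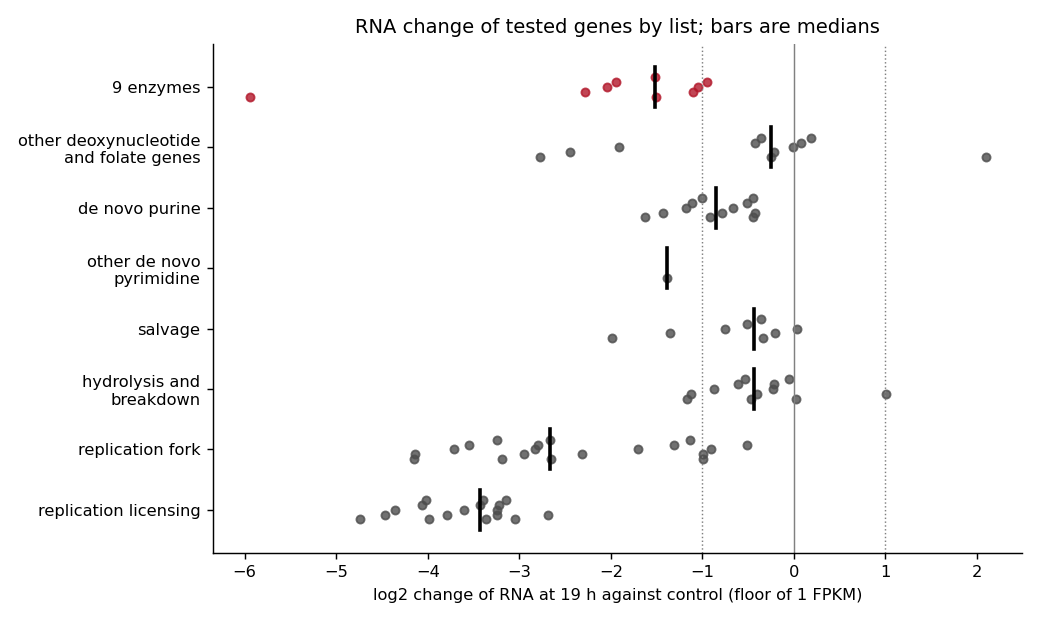
Log2 change of RNA at 19 h against the control, with values floored at 1 FPKM, for each tested gene of 8 lists, 1 point per gene, with black bars at list medians and dotted lines at the 2-fold call. The 9 enzymes (red) have a median of -1.52, between -0.85 for de novo purine genes and -2.66 for replication fork genes, and RRM2B is the point at 2.10.

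The members did not share a single course. Over the 4 RNA and 4 density changes, the closest pair was TK1 and DTYMK, at a Euclidean distance of 0.664 log2 units, while the nearest member to RRM2 was RRM1 at 6.02 and the nearest to CAD was UMPS at 2.21. Genes outside the 9 lay closer to several of them, as is likely when they are picked from tested genes far more numerous than the members. Those nearest to RRM2 were AURKB (1.05), PBK (1.19) and CDCA8 (1.23), of which AURKB encodes the mitotic kinase Aurora B. AURKB RNA went from 38.7 FPKM in the control to 0.418 at 19 h, and all 3 were below the floor of 1 FPKM at that time, so these distances depend on the floor.

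For RRM1 the nearest were CKAP2 (0.481), NCAPD2 (0.488) and NASP (0.491), with 19 h RNA changes of -2.40, -2.11 and -2.28. For TK1 they were the tubulin genes TUBA1C (0.392), TUBB4B (0.403) and TUBA1B (0.419), with 19 h RNA changes of -1.70, -1.77 and -1.87. For TYMS they were CCT5 (0.359), SLC25A5 (0.400) and TUBG1 (0.402). For CAD they were MAP3K6 (0.553), OLFML2B (0.651) and CCDC134 (0.683), whose density changes at 2 h were 0.62, 0.65 and 0.44. All of these distances are over 8 values that share their control libraries, and they are a description with no test.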

How the data were processed

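Poly(A) RNA-Seq and Ribo-Seq libraries of BJ cells, 1 per time point and assay, were compared by time as the labels give it. The authors aligned 50-nt reads with Bowtie to 1 transcript per protein-coding gene (Ensembl release 65, hg19) and kept unique hits. The values they deposited are FPKM with 3 decimals, in 2 tables with equal column names. Tables were assigned to assays by name, with a check on 28 histone transcripts, of which 21 were below 1 FPKM in the control of the RNA-Seq table and 0 in that of Ribo-Seq. No column of per-sample values was left unused.

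Read numbers, totals and lengths were worked out from the steps between low FPKM values, for 99.6% of transcripts in both tables. A single length made the values whole in both assays, so Ribo-Seq FPKM was taken as scaled to the whole transcript. Recovered reads gave the counting SE and entered no test. Values were floored at 1 FPKM, log2 ratios were taken to the control of the same assay, and a change of 2-fold or more was called. Genes were tested where 1 or more libraries of each assay reached 5 FPKM. Alternatives were a pseudocount of 1 FPKM, a floor of 5 FPKM, median-centring, the 2 h baseline, a 1.5-fold call, removal of the length trend and other filters. Calculations used Python 3.11.15, numpy 2.4.6 and pandas 2.3.3, tested on simulated data.

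The genes named are the 9 members, the genes of each list called in RNA at 19 h (at most the 6 with the largest change), RRM2B, CDKN1A and MDM2, and the 3 genes nearest to each of 5 members. Some genes that this rule names are not reported here. Members and lists were chosen with earlier results of these data known.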

Additional observations from a re-analysis of the deposited data

Results flagged for a closer look

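Several measures of the members moved in opposite directions at different times, each by more than 2 counting SE. The difference between times was not tested, as each time is 1 library, and all changes share the control library.

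In RNA, TYMS alone did so, with 0.16 at 4 h and -1.11 at 19 h. In ribosome density, RRM1 was 0.20 at 2 h and -2.42 at 19 h, RRM2 was 0.062 at 2 h and -6.13 at 19 h, TYMS was 0.11 at 4 h and -1.55 at 19 h, and DTYMK was 0.28 at 4 h and -1.80 at 19 h. CAD density was 0.96 at 2 h and -0.17 at 4 h. In TE, RRM1 was 0.39 at 2 h and -0.21 at 6 h, DTYMK was 0.48 at 4 h and -0.21 at 6 h, and TK1 was -0.19 at 6 h and 0.32 at 19 h. Medians of TE over all tested genes also lay above the control early, by 0.045 at 2 h and 0.18 at 4 h.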

How the results depend on the processing

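Among changes of the members that were past 2 SE, none that was called turned direction under an alternative. With the 2 h library as baseline, CAD turned to -0.85 (4 h) and -0.18 (19 h) in TE and to -0.63 (6 h) in density, RRM1 TE at 4 h to -0.13, DUT TE at 4 h to 0.040 and DTYMK RNA at 4 h to 0.0022, and with the length trend removed RRM2 density at 2 h turned to -0.049. Among the counts of members called, 121 values stayed within 1.5 times the count reported and 9 moved. A 1.5-fold call gave 2 members lower in RNA at 4 h in place of 0 and 7 at 6 h in place of 4, and 1 higher in density at 2 h and in TE at 19 h in place of 0. With the 2 h baseline, 1 member was lower in density at 4 h in place of 0, and 0 were higher in TE at 6 h in place of 1. With the length trend removed, 0 members were higher in TE at 2 h and at 6 h in place of 1, and with median-centring 1 was at 19 h in place of 0. Among de novo purine genes, 3 were lower in RNA at 19 h with a pseudocount in place of 5 and 8 with a 1.5-fold call. No paired analysis was possible because each group holds 1 library and the labels give no replicate numbers, and for the same reason no library could be left out of a group. Depth limits RRM2 most, with 55 reads in the 19 h Ribo-Seq library.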
